A study of Rattus norvegicus with 36 samples.

Results

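The comparison set the 12 liver arrays of the lowest HBCD doses, 6 at 0.06 mg/kg and 6 at 0.641 mg/kg, against 6 arrays of corn oil vehicle. These 18 arrays, chosen by their sample titles, belong to a series of 36 that also holds 6 arrays each at 6.41, 64.1 and 641 mg/kg. HBCD (hexabromocyclododecane) was given by gavage in corn oil, 5 ml per kg body weight, once a day for 5 days. All groups were male Harlan Sprague Dawley rats, an outbred stock, aged 7 weeks at the start, on the same diet, and the vehicle rats received corn oil with no HBCD. RNA came from the left liver lobe 1 day after the last dose. Whether the 6 numbered samples of a group are 6 different rats is not stated in the labels, so the spread behind each p-value may be technical. The question was how large a change at the low doses these arrays leave possible, and how closely the responses at 0.641 and 0.06 mg/kg match.

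HBCD is a brominated flame retardant that was added to polystyrene foams and textiles. In rodent liver, foreign compounds of many structures switch on the nuclear receptors CAR and PXR, which raise the transcription of cytochromes P450 of the 2B and 3A families, of conjugating enzymes and of exporters. The induced enzymes speed the clearance of drugs, steroids and thyroid hormone.

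Cyp3a23-3a1 encodes a rat cytochrome P450 of the 3A family and is a standard readout of PXR. Its promoter is shown because the gene serves below as a marker of this pathway, from its high response at 641 mg/kg. The window, from RefSeq on build GRCr8, is chr12:14398754-14399053 on the minus strand, 250 bases before to 50 after the annotated start, and is printed 5′ to 3′ along the gene.
Cyp3a23-3a1: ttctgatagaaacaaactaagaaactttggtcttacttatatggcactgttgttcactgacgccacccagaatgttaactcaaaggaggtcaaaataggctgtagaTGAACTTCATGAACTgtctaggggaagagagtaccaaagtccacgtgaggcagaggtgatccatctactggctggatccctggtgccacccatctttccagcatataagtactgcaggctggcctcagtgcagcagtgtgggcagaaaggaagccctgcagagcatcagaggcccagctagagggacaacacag
The capitals mark the only match to a direct repeat spaced by 3 bases, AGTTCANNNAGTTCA, searched on both strands and found on the opposite strand, 144 to 130 bases before the start. Of 33469 rat promoters of 300 bases, 2 held this motif (0.00598%). The match is a description of letters in this window.

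Technical checks set the low-dose arrays beside the vehicle arrays. The correlation across probe sets was 0.991 to 0.997 over all pairs of the 18 arrays, and array medians of the log2 values lay between 4.84 and 4.89. The deposited values were already normalized between arrays, and differences between genes dominate such correlations. Neither measure could therefore show a small technical difference. The 3′ minus 5′ difference of the Gapdh control probe sets, a sign of RNA quality, was -0.008 ± 0.078 (SD) on the log2 scale in the low-dose arrays and 0.004 ± 0.039 (SD) in the vehicle arrays, and an exact two-sided permutation test over 18564 splits gave p = 0.716. For actin the same exact test gave p = 0.762. On the first principal component of the 18 arrays, which held 14.2% of the variance, replicate 2 at 0.641 mg/kg (-26.2) and replicate 2 at 0.06 mg/kg (-21.6) stood apart from the other 16, which lay between -11.9 and 14.2. Results were therefore also computed without these 2 arrays. Hepatocyte markers were high in every array, the lowest of the 14 measured being Hnf4a, a transcription factor, at 11.39 or more in the low-dose arrays and 11.38 or more in the vehicle arrays. Albumin (Alb), the main plasma protein, had a lowest level of 14.26 in the low-dose arrays and of 14.50 in the vehicle arrays.

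No transcript was called changed at the low doses. With limma and Benjamini-Hochberg adjustment over 31042 probe sets, 0 probe sets (0%) had an adjusted p under 0.05 for the 12 low-dose arrays against vehicle. The smallest adjusted p was 1. At an unadjusted p under 0.05 there were 1408 probe sets (4.54%), 659 of them higher and 749 lower at the low doses, against 1552.1 for a flat distribution of p. Each dose on its own gave 0 calls (0%) too, with 1293 probe sets at 0.06 mg/kg (4.17%) and 1477 at 0.641 mg/kg (4.76%) at the unadjusted threshold. A joint F test of both doses, which also catches transcripts that move apart, gave 0 calls (0%) and 1274 unadjusted (4.1%). The call count stayed 0 for all of these with an unmoderated test, with a trended and robust variance model, and without the 2 arrays that stood apart.

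The ranges of single arrays were also compared. In 0 of 31042 probe sets (0%) did all 12 low-dose arrays lie above all 6 vehicle arrays, and in 0 (0%) did all lie below. Such separation is rare among the 18564 possible splits of 12 and 6 arrays, so a count of 0 says little. No expected count was computed for the rules in this paragraph. Against vehicle, the 6 arrays at 0.06 mg/kg cleared the vehicle range upward for 12 probe sets (0.0387%) and downward for 30 (0.0966%). Those at 0.641 mg/kg did so for 24 (0.0773%) and 23 (0.0741%). In 152 probe sets (0.49%) all 12 low-dose arrays lay above the vehicle mean, and in 185 (0.596%) all lay below it.

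Most transcripts were bounded tightly. The 95% interval of the pooled change reached a median of 1.10-fold to either side of the estimate, and its limit farther from no change had a median of 1.14-fold and a 95th percentile of 1.30-fold. The interval lay inside 1.5-fold in both directions for 98.9% of probe sets and inside 2-fold for 99.8%. A stricter bound, 0.32 either way on the log2 scale, held it for 90.8%. That left 355 probe sets with an interval reaching past 1.5-fold and 58 past 2-fold. Intervals made simultaneous over all 31042 probe sets (Bonferroni) reached a median of 1.32-fold to either side, and 81% of them lay inside 1.5-fold and 97.5% inside 2-fold.

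A test of the bound itself gave similar shares. Paired one-sided moderated tests, with the same adjustment, placed 30789 probe sets (99.2%) inside 1.5-fold at an adjusted p under 0.05, and 253 could not be placed there. Inside 2-fold were 30999 (99.9%), with 43 left over. At the stricter bound of 0.32 on the log2 scale the number was 29063 (93.6%). Without the 2 arrays that stood apart, 30732 were placed inside 1.5-fold. Each dose alone was less precise: 30696 probe sets (98.9%) at 0.06 mg/kg and 30617 (98.6%) at 0.641 mg/kg were placed inside 1.5-fold. The median reach of the interval varied little with level. It ran from 1.07-fold to either side where the mean log2 level was over 10 to 1.11-fold where it was 4 to 6. Wide intervals were rarest at the lowest levels. The interval lay inside 1.5-fold for 99.8% of the 11177 probe sets with a mean under 4. The share was 98.5% at 4 to 6, 98.2% at 6 to 8, 98.1% at 8 to 10 and 98.7% over 10. The bounds hold for the measured signal, and the files give no call on which probe sets were above background.

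**Figure D1:**
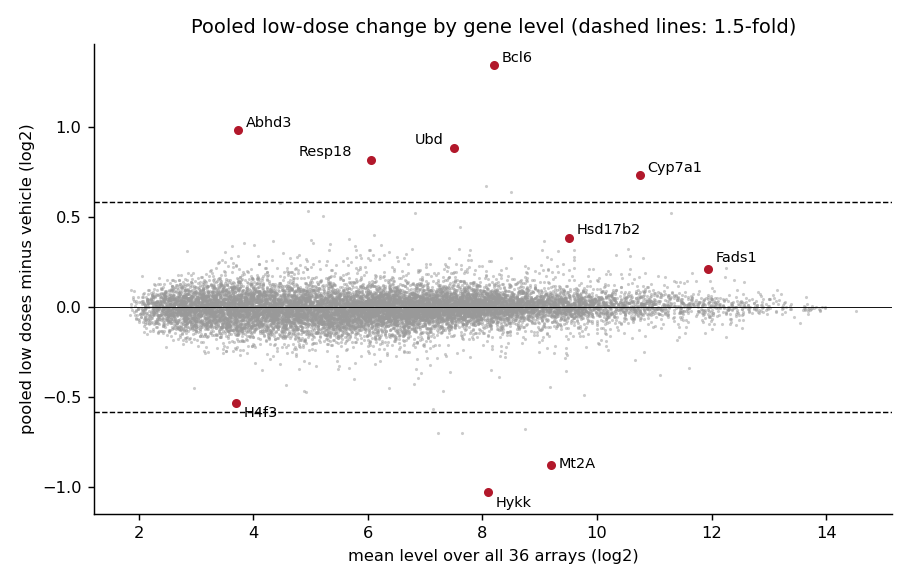
Pooled low doses minus vehicle (log2, vertical) against the mean level over all 36 arrays (log2, horizontal), 1 point per gene. The dashed lines mark 1.5-fold; 10 genes described in the text are in red, among them Bcl6 at 1.35 and Hykk at -1.03, and 0 points were called.

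**Figure D2:**
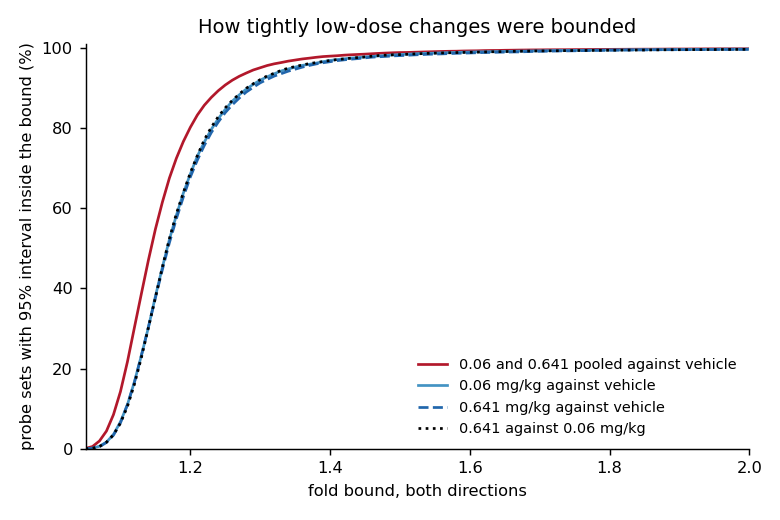
Share of the 31042 probe sets (vertical, %) whose 95% interval lies inside a given fold bound in both directions (horizontal). The pooled contrast reaches 98.9% at 1.5-fold, against 98.4% at 0.06 mg/kg, 98.1% at 0.641 mg/kg and 98.4% for 0.641 against 0.06 mg/kg.

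The drug-metabolism genes that stand highest at 641 mg/kg gave no call at the low doses, and their bounds differed from gene to gene. Cyp3a23-3a1, whose promoter is printed above, had log2 levels of 12.37, 12.42 and 12.60 (lowest, median, highest) at 0.06 mg/kg and 12.39, 12.50 and 12.58 at 0.641 mg/kg, against 12.12, 12.44 and 12.60 in vehicle. All low-dose arrays but 1 fell within the vehicle range. Pooled, the fold was 1.06 (95% interval 0.968 to 1.16; adjusted p = 1).

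The probe set shared by Cyp2b1 and Cyp2b2, near-identical phenobarbital-inducible P450s that it cannot tell apart, had levels of 10.01, 10.90 and 11.50 at 0.06 mg/kg and 10, 10.85 and 11.45 at 0.641 mg/kg, against 9.66, 10.55 and 10.84 in vehicle. The groups overlapped, with 7 of 12 low-dose arrays above the highest vehicle array. Pooled, the fold was 1.33 (1.01 to 1.74; adjusted p = 1), so an increase of up to 1.74-fold lies inside its interval. Ces2c, a carboxylesterase, had levels of 6.85, 7.08 and 7.56 at 0.06 mg/kg and 7.09, 7.29 and 7.38 at 0.641 mg/kg, against 6.55, 6.80 and 7.44 in vehicle, and 1 vehicle array lay among the highest. Its pooled log2 change was 0.32 (fold interval 1.06 to 1.47; unadjusted p = 0.00907, adjusted p = 1).

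Hsd17b2, which oxidises estradiol and testosterone to weaker steroids, had the smallest unadjusted p of the CAR and PXR list. Its levels were 9.35, 9.47 and 9.68 at 0.06 mg/kg and 9.29, 9.55 and 9.70 at 0.641 mg/kg, against 8.96, 9.17 and 9.31 in vehicle. Of the 12 low-dose arrays, 11 lay above every vehicle array. The pooled fold was 1.30 (1.15 to 1.49; unadjusted p = 0.000199, adjusted p = 1), and the fold at 641 mg/kg against the same vehicle arrays was 1.61 (1.38 to 1.87).

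Of the 25 measured CAR and PXR targets, 20 (80%) had a pooled change above 0, against 47.1% of all 14217 genes. Their median fold was 1.05, against 0.997 over all genes. Of these targets 0 passed the adjusted test. At the unadjusted threshold, which 4.42% of all genes passed, 4 lay higher and 1 lower. Besides Hsd17b2 and Ces2c, the higher ones were Ugt2b1, a glucuronosyltransferase (1.16-fold, 1.04 to 1.30), and Ephx1, the microsomal epoxide hydrolase (1.11-fold, 1.02 to 1.21). The lower one was Alas1, the first enzyme of haem synthesis (0.846 of vehicle, 0.731 to 0.979). Such members, other than the one with the smallest p in a list, were chosen after their values were seen, here and for the lists that follow. Of the 25 intervals, 24 lay inside 1.5-fold and all 25 inside 2-fold, with Sult2a6, a sulfotransferase, reaching farthest (1.77-fold).

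Other members that respond strongly at the top dose had pooled intervals that held no change. Abcc3, an exporter of conjugates, stood at 0.958 of vehicle (0.742 to 1.24), and its low-dose and vehicle arrays covered almost the same span, 4.71 to 5.56 and 4.63 to 5.69. Gsta3, a glutathione transferase, had a pooled fold of 1.09 (0.846 to 1.40). Cyp3a18 had 1.05 (0.941 to 1.17) and Aldh1a1, a retinal dehydrogenase, 1.14 (0.995 to 1.31).

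Set directly against the 12 low-dose arrays, the 641 mg/kg arrays differed widely in these genes. This contrast, added after the data were seen, called 487 probe sets (1.57%), 307 higher and 180 lower at 641 mg/kg. Cyp3a23-3a1 had levels of 13.62, 13.67 and 13.77 at 641 mg/kg, above all low-dose arrays, and was 2.31-fold higher there (2.11 to 2.53; limma adjusted p = 1.26e-15). Abcc3 was 5.49-fold higher (4.25 to 7.10; limma adjusted p = 1.76e-11), with no overlap between 7.03 to 8.44 at 641 mg/kg and 4.71 to 5.56 at the low doses. At 64.1 mg/kg, 12 probe sets (0.0387%) were called against the low doses, all higher. They included Cyp3a23-3a1 at 1.72-fold (1.58 to 1.88; limma adjusted p = 7.37e-10) and Ugt2b1 at 1.46-fold (1.30 to 1.63; limma adjusted p = 0.000973).

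**Figure D3:**
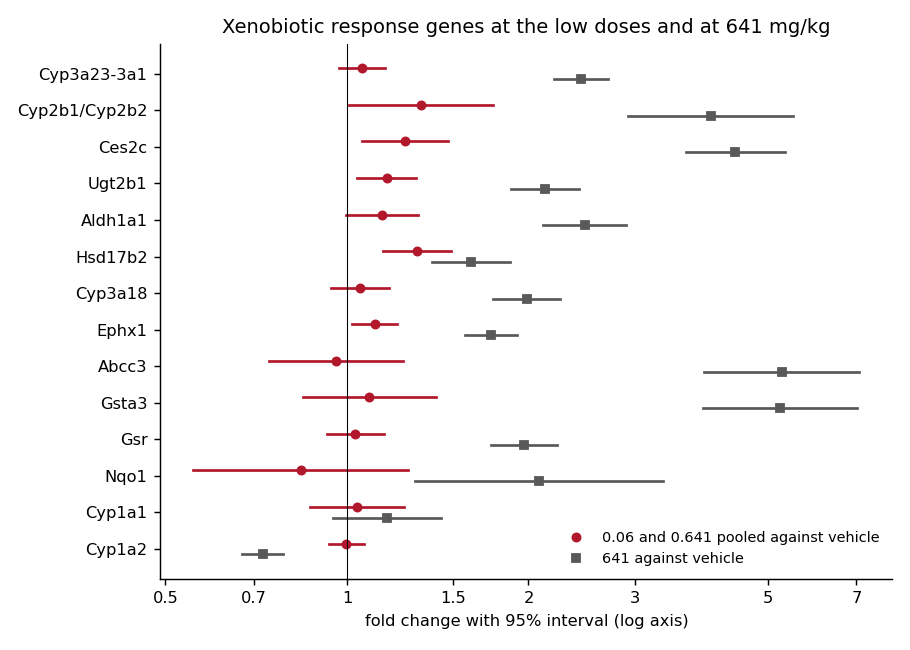
Fold change (log axis) with 95% interval for 14 xenobiotic response genes, pooled low doses against vehicle (red circles) and 641 mg/kg against the same vehicle arrays (grey squares). Cyp3a23-3a1 sits at 1.06 and 2.45 and Abcc3 at 0.958 and 5.26; for Hsd17b2 the intervals overlap, 1.15 to 1.49 at the low doses and 1.38 to 1.87 at 641 mg/kg.

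For genes that respond at the top dose, a contrast between other groups was used to ask where they lay at the low doses. This contrast, of 641 with 6.41 mg/kg, was also added after the data were seen. Its group means share no array with the low doses or vehicle, and it called 310 probe sets (0.999%). Of the 197 called higher at 641 mg/kg, 147 (74.6%) had a pooled low-dose change above 0, against 48.3% of all 31042 probe sets. Their median pooled fold was 1.04, and 24 of them (12.2%) passed the unadjusted threshold, against 4.54% overall. Of the 113 called lower at 641 mg/kg, 70 (61.9%) had a pooled low-dose change below 0, against 51.7% of all probe sets. Their median pooled fold was 0.987, and 6 (5.31%) passed the unadjusted threshold. The probe sets of either set are not independent, and no test was run on these shares. In size, 193 of the 197 intervals (98%) and 111 of the 113 (98.2%) lay inside 1.5-fold. The farthest limit was 12.1-fold among the 197 and 1.82-fold among the 113.

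The oxidative stress and dioxin-type lists gave no call. Among 22 measured targets of NRF2, the regulator of antioxidant genes, the median fold was 1.03. Of the 22, 16 (72.7%) had a pooled change above 0, against 47.1% of all genes. Ephx1, Srxn1 (1.12-fold) and Tkt (1.09-fold) lay higher at the unadjusted threshold and 0 lay lower (13.6% past it, against 4.42% of all genes). Gsr, which recycles glutathione, had a pooled fold of 1.03 (0.926 to 1.15), while at 641 mg/kg it was 1.90-fold above the low doses (1.71 to 2.12; limma adjusted p = 3.04e-10). Nqo1, a quinone reductase, had levels of 6.92, 7.07 and 9.36 at 0.06 mg/kg and 6.97, 7.08 and 7.28 at 0.641 mg/kg, against 6.86, 7.17 and 9.37 in vehicle. A single array at 0.06 mg/kg and a single vehicle array, replicate 2 of each, lay about 2 log2 units above the rest of their groups. The pooled value was 0.839 of vehicle (0.557 to 1.26), and without vehicle replicate 2 the log2 change was 0.11 in place of -0.25.

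Of 8 measured targets of the aryl hydrocarbon receptor, 0 passed even the unadjusted threshold, and the median fold was 1.01. Cyp1a2, a major P450 of hepatocytes, had levels of 12.55, 12.74 and 12.85 at 0.06 mg/kg and 12.66, 12.78 and 12.88 at 0.641 mg/kg, against 12.64, 12.79 and 12.81 in vehicle. The ranges overlapped, and the pooled fold was 0.998 (0.933 to 1.07). Cyp1a1, the classical dioxin-inducible P450, had a pooled fold of 1.04 (0.870 to 1.24).

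Lipid synthesis genes lay slightly above vehicle as lists, with 0 of them called. Of 20 measured genes of cholesterol synthesis and its control by SREBP2, 18 had a pooled change above 0, the median fold was 1.10, and Pmvk (1.18-fold, 1.03 to 1.35), Cyp51 (1.15-fold, 1.01 to 1.31) and Nsdhl (1.12-fold, 1.02 to 1.24), all enzymes of the pathway, passed the unadjusted threshold. Of 23 genes of fatty acid synthesis and its control, 20 lay above 0, the median fold was 1.07, and Fads1, Fads2 (1.22-fold), Acly (1.21-fold) and Pnpla3 (1.45-fold, 1.03 to 2.03) passed it. Over all 14217 genes, 47.1% lay above 0 and 4.42% passed the unadjusted threshold. The counts of every list here stand against these shares, and no test was run on them.

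Fads1, the delta-5 desaturase of polyunsaturated fatty acids, had levels of 11.91, 11.99 and 12.21 at 0.06 mg/kg and 11.96, 12.02 and 12.16 at 0.641 mg/kg, against 11.67, 11.79 and 12.02 in vehicle. All 12 low-dose arrays lay above the vehicle mean and 6 lay above the highest vehicle array. Pooled, the fold was 1.16 (1.08 to 1.247; unadjusted p = 0.000245, adjusted p = 1), and the fold at 641 mg/kg against vehicle was 1.04.

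Scd, which makes monounsaturated fatty acids, had levels of 9.75, 10.40 and 10.64 at 0.06 mg/kg and 9.55, 10.15 and 10.37 at 0.641 mg/kg, against 8.19, 10.13 and 11.12 in vehicle, so all low-dose arrays fell within a wide vehicle range. Its pooled fold was 1.20 (0.789 to 1.82), and without vehicle replicate 2 the log2 change was -0.089 in place of 0.26. At 641 mg/kg Scd was at 0.214 of the low-dose level (0.141 to 0.325; limma adjusted p = 6.56e-06). Fasn, the fatty acid synthase (1.08-fold, 0.904 to 1.28), and Sqle of sterol synthesis (1.13-fold, 0.943 to 1.35) had intervals that held no change.

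Bile acid and fatty acid oxidation genes showed no common shift. Of 23 bile acid genes 0 passed the unadjusted threshold, with a median fold of 1.01. Cyp7a1, which sets the rate of bile acid synthesis, varied widely: its levels were 9.09, 11.48 and 11.89 at 0.06 mg/kg and 9.70, 11.28 and 11.63 at 0.641 mg/kg, against 8.55, 10.43 and 11.35 in vehicle. The groups overlapped, and 7 of 12 low-dose arrays exceeded the highest vehicle array. Its pooled estimate of 1.66-fold (0.964 to 2.86; unadjusted p = 0.0665) had the loosest bound of its list. Among 27 targets of PPAR alpha, the receptor for fatty acids, the median fold was 1.00. Cpt1b (0.870 of vehicle, 0.771 to 0.981) and Angptl4, an inhibitor of lipoprotein lipase (0.712, 0.513 to 0.988), lay lower at the unadjusted threshold. Cyp4a1, the fatty acid hydroxylase most used as a PPAR alpha readout in rats, had a pooled fold of 1.05 (0.893 to 1.24).

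Hormone-related lists gave 0 calls. Of 17 thyroid hormone genes, Ces2c and Ugt2b1 lay higher and Klf9, a thyroid hormone and glucocorticoid target, lay lower (0.781 of vehicle, 0.639 to 0.955) at the unadjusted threshold. Dio1, the hepatic deiodinase, had a pooled fold of 1.02 (0.924 to 1.12). Male-predominant genes (13 measured, median fold 1.02) had 0 past the unadjusted threshold, the smallest p being that of Ust5r, a transporter (1.04-fold). Female-predominant genes (11 measured, median fold 1.01) had Slc22a2 alone, at 0.914 of vehicle (0.839 to 0.996).

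Central metabolism and rhythm lists stayed near no change in their medians. The 13 genes of gluconeogenesis and glycolysis had a median fold of 1.02 and Slc2a2, the glucose transporter GLUT2, past the unadjusted threshold (1.09-fold, 1.01 to 1.18). The 20 genes of urea and amino acid metabolism had a median fold of 0.982, with 2 above 0 and 0 past the threshold. Gnmt, a methyltransferase that consumes S-adenosylmethionine, had the smallest p there, at 0.906 of vehicle (0.807 to 1.02), and was at 0.646 of the low-dose level at 641 mg/kg (0.575 to 0.725; limma adjusted p = 4.63e-06). The 17 clock genes had a median fold of 1.00, with Cry1 at 1.13 (0.962 to 1.33). The 17 immediate early genes had a median fold of 1.01, with Egr2 at 1.10 (0.989 to 1.22).

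The 14 measured genes of glucocorticoid action and fasting had a median fold of 0.884 and 2 members above 0. Angptl4 and Mt2A, a metallothionein, lay lower at the unadjusted threshold. Mt2A had levels of 6.40, 9.00 and 10.08 at 0.06 mg/kg and 7.32, 8.95 and 10.14 at 0.641 mg/kg, against 9.19, 9.68 and 10.20 in vehicle. Of the low-dose arrays, 8 lay below the lowest vehicle array and none above the highest. The pooled value was 0.544 of vehicle (0.300 to 0.986; unadjusted p = 0.0452, adjusted p = 1).

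Cell cycle genes lay above vehicle in 25 of 28 cases, with a median fold of 1.08 and 0 called. Ccna2, the S and G2 phase cyclin, had levels of 3.54, 4.40 and 5.44 at 0.06 mg/kg and 3.76, 4.62 and 5.49 at 0.641 mg/kg, against 3.12, 3.92 and 4.85 in vehicle. The ranges overlapped over most of their length. Its pooled fold was 1.49 (1.06 to 2.11; unadjusted p = 0.0251, adjusted p = 1), and Top2a, the replication topoisomerase, had 1.29 (1.02 to 1.65). In this list 19 of 28 intervals lay inside 1.5-fold.

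Stress and immune lists gave 0 calls. The 13 p53 targets (10 above 0, median fold 1.03, Sesn1 at 1.10), 9 heat shock genes (1.02, Hsp90ab1 at 0.952) and 23 acute phase genes (0.996, Il1rn at 1.10) had 0 members past the unadjusted threshold. Of 23 genes of endoplasmic reticulum stress (median fold 0.992), Dnajb9, a chaperone of the lumen, lay higher (1.21-fold, 1.05 to 1.40) and Trib3 lay lower (0.731 of vehicle, 0.573 to 0.931). Interferon-stimulated genes had a median fold of 0.911 and 1 of 21 members above 0, with 0 past the unadjusted threshold. Herc6, with the smallest p, was at 0.855 of vehicle (0.704 to 1.04).

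Markers of other liver cells were measured in the same tissue. In bulk tissue, fewer cells of a type and less RNA per cell cannot be told apart. The 11 Kupffer cell and macrophage markers had a median fold of 0.904, with 1 above 0 and 0 past the unadjusted threshold. Their mean level over the list ranged from 8.09 to 8.99 (log2) in the low-dose arrays and from 8.62 to 8.90 in vehicle. Csf1r, the receptor that maintains macrophages, had the smallest p, at 0.893 of vehicle (0.758 to 1.05). Neutrophil markers (7 measured) had a median fold of 0.944, with S100a9 (0.786, 0.640 to 0.965) and S100a8 (0.832, 0.694 to 0.997) lower at the unadjusted threshold. That was 28.6% of the list, against 4.42% of all genes past the threshold in either direction. The mean level over the list was 3.34 to 3.64 at the low doses and 3.36 to 3.71 in vehicle.

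Endothelial markers (9 measured) had a median fold of 0.949. Fcgr2b (0.854, 0.758 to 0.962) and the scavenger receptors Stab1 (0.873, 0.772 to 0.987) and Stab2 (0.909, 0.827 to 0.999) were lower at the unadjusted threshold. That was 33.3% of the list, against 4.42% of all genes past the threshold in either direction. The mean level over the list was 7.52 to 7.86 at the low doses and 7.71 to 7.83 in vehicle. The remaining lists had 0 members past that threshold. These were T and NK cells (11 measured, median fold 0.995, Cd3e at 0.926), B cells (4, 0.938, Jchain at 0.832), stellate cells (11, 1.01, Lrat at 1.12), cholangiocytes (5, 0.974, Krt19 at 0.811), erythroid cells (5, 0.958, Epb42 at 1.08) and exocrine pancreas (9, 1.02, Ctrb1 at 0.938). The 14 hepatocyte genes had a median fold of 0.999, and all 14 intervals lay inside 1.5-fold, the farthest reaching 1.13-fold (Apoa2). Whether shifts in cell makeup contributed to any gene value above was not tested.

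Across all genes, the smallest p values belonged to small differences. The lowest unadjusted p among genes, each by its 1 probe set, was that of H4f3, a histone H4 gene, followed by Hsd17b2 and Fads1. H4f3 had levels of 3.34, 3.50 and 4.09 at 0.06 mg/kg and 3.47, 3.57 and 3.78 at 0.641 mg/kg, against 3.76, 4.01 and 4.60 in vehicle. Of the low-dose arrays, 10 lay below every vehicle array. The pooled value was 0.690 of vehicle (0.578 to 0.825; unadjusted p = 0.000166, adjusted p = 1), at a level low on the array's scale.

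The other genes with the lowest p on the higher side were Orc1, a subunit of the origin recognition complex (1.13-fold), Krt5, a keratin (1.19-fold), Fgf10, a growth factor (1.17-fold), Dock5 (1.18-fold), Eif2ak3, the kinase PERK of the unfolded protein response (1.22-fold), Ckmt2, a creatine kinase (1.24-fold), Hpdl (1.22-fold) and Cenpk, a kinetochore protein (1.248-fold). Their unadjusted p ranged from 0.000749 to 0.00157. On the lower side they were LOC100911671, Gnpda2, Atg2a, Mgat4a, Ccno, Ctsa, Slc13a5, Hoxb7 and Cacna2d3, at 0.795 to 0.915 of vehicle. Slc13a5, the hepatic citrate transporter, was the lowest of these (0.795, 0.692 to 0.914), and Ctsa, the lysosomal cathepsin A, the highest (0.915, 0.868 to 0.964). All had an adjusted p of 1. Second probe sets of these genes had intervals that held no change. They stood at 1.07 for Mgat4a (0.974 to 1.17), 0.967 for Ccno (0.868 to 1.08) and 1.09 for Dock5 (0.972 to 1.23). Several genes of this paragraph had mean log2 levels low on the array's scale. These included Ckmt2 (2.84), Ccno (3.16), Cacna2d3 (3.64), Fgf10 (3.69), Hoxb7 (3.70) and Gnpda2 (3.98). Levels were higher for others, such as Cenpk (5.80), Eif2ak3 (6.28), Dock5 (6.71), Atg2a (6.92) and Ctsa (10.7).

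The smallest p of all belonged to a probe set of Bcl6b that does not stand for its gene under the rule used here and was singled out after its values were seen. It had a pooled fold of 1.20 (1.11 to 1.31; unadjusted p = 5.42e-05, adjusted p = 1). The other 3 Bcl6b probe sets ranged from 0.974 to 1.06.

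**Figure D4:**
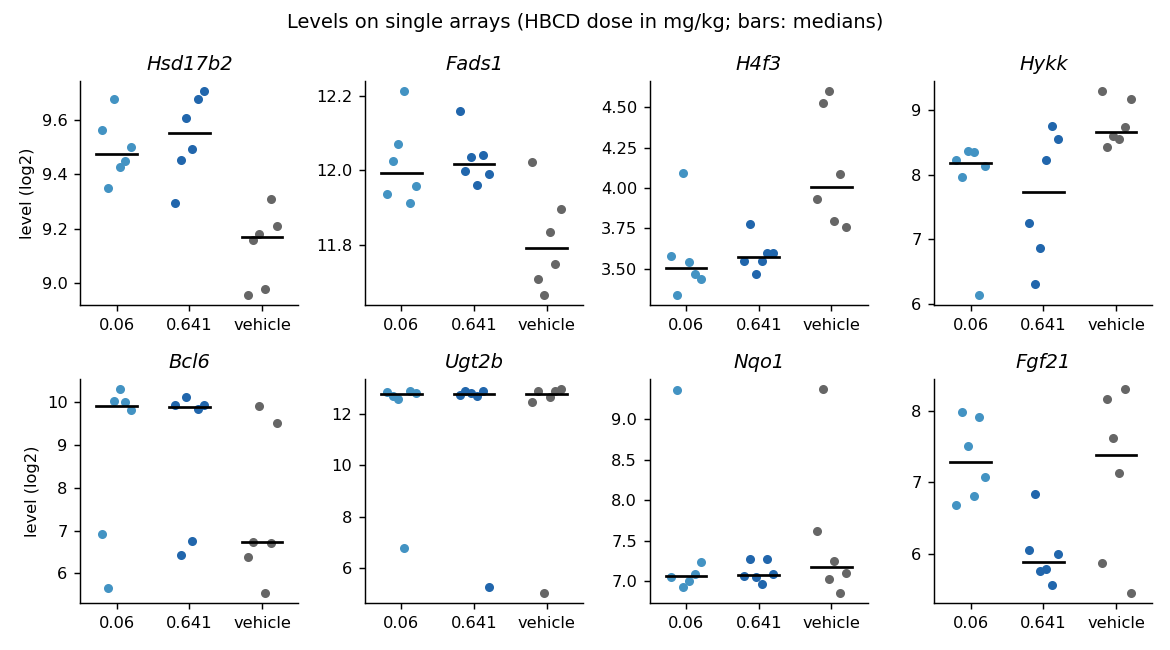
Log2 level on each array (points) with the median (bar) at 0.06 mg/kg, 0.641 mg/kg and vehicle for 8 genes. For Hsd17b2, 11 of 12 low-dose points lie above every vehicle point; for Ugt2b, 1 point of each group lies far below the others.

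The largest estimated changes came with wide intervals. Of 31042 probe sets, 21 had a pooled estimate past 1.5-fold and 4 past 2-fold. Hykk, hydroxylysine kinase, had levels of 6.14, 8.18 and 8.37 at 0.06 mg/kg and 6.30, 7.73 and 8.76 at 0.641 mg/kg, against 8.43, 8.66 and 9.29 in vehicle. Of the low-dose arrays, 10 lay below every vehicle array and 3 of the 12 were under 7. The pooled value was 0.489 of vehicle (0.303 to 0.790; unadjusted p = 0.00457, adjusted p = 1).

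Bcl6, a transcriptional repressor under growth hormone control in rodent liver, had the highest estimate of any gene. Its levels were 5.67, 9.90 and 10.30 at 0.06 mg/kg and 6.44, 9.88 and 10.12 at 0.641 mg/kg, against 5.55, 6.73 and 9.90 in vehicle. In each group the arrays fell into a low set, at 5.55 to 6.91, and a high set, at 9.51 to 10.30, with none between. The pooled fold was 2.54 (0.840 to 7.68; unadjusted p = 0.0961), so a change of more than 7-fold is inside its interval.

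Resp18, first known as an endocrine-specific protein, had a pooled fold of 1.76 (1.16 to 2.67; unadjusted p = 0.00875), with 11 of 12 low-dose arrays above the vehicle mean and 1 above the highest vehicle array. Abhd3, a phospholipid hydrolase (1.98-fold, 0.643 to 6.08), had 3 of the 12 low-dose arrays above every vehicle array. The other Abhd3 probe set, at a lower mean level, was bounded more tightly (1.125-fold, 1.007 to 1.256, unadjusted p = 0.0376). Ubd, a ubiquitin-like modifier (1.85-fold, 0.757 to 4.51), Onecut1, a hepatic transcription factor (0.616, 0.257 to 1.48), Serpinb9b (0.616, 0.270 to 1.40) and Slc25a30, a mitochondrial carrier (0.625, 0.339 to 1.15), all had intervals that held no change. The highest estimate of all, 3.59-fold (1.07 to 12.1, unadjusted p = 0.0395), was that of a probe set without a single gene symbol. It was singled out after its values were seen. This probe set was among the 197 called higher at 641 than at 6.41 mg/kg, and its upper limit was the farthest of that set.

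Among genes with a mean level of at least 6, the widest intervals were those of Ugt2b, Bcl6, Cdh17, Ubd and Onecut1, which reached from 2.40-fold to either side for Onecut1 to 3.85-fold for Ugt2b. Ugt2b, listed as a glucuronosyltransferase of the 2B family, had levels of 6.77, 12.79 and 12.91 at 0.06 mg/kg and 5.23, 12.81 and 12.92 at 0.641 mg/kg, against 5.02, 12.80 and 13.00 in vehicle. A single array in each group lay at 5.02 to 6.77 and all others at 12.5 to 13.0. The pooled fold was 1.13 (0.292 to 4.33), and without vehicle replicate 3 the log2 change was -1.13 in place of 0.17. For such genes these arrays bound a low-dose change only loosely.

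The 0.641 and 0.06 mg/kg groups were compared directly, in a contrast that uses no vehicle array. It called 0 probe sets (0%) with limma, and 1239 (3.99%) passed the unadjusted threshold, 644 higher and 595 lower at 0.641 mg/kg. The smallest adjusted p was 0.328. The 95% interval reached a median of 1.12-fold to either side and lay inside 1.5-fold for 98.4% of probe sets and inside 2-fold for 99.7%, with 106 outside 2-fold, and for 85.1% it lay inside the stricter bound. The paired one-sided tests placed 30685 probe sets (98.8%) inside 1.5-fold, and 357 could not be placed there. At the stricter log2 bound of 0.32 the number was 27775 (89.5%). Without the 2 arrays that stood apart, 30537 were placed inside 1.5-fold. All 6 arrays at 0.641 mg/kg lay above all 6 at 0.06 mg/kg for 26 probe sets (0.0838%) and below them for 17 (0.0548%).

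Of the 88 genes named by rule, which include 10 chosen for their dose difference, 12 passed the unadjusted threshold in this contrast and 0 were called. For 65 the interval lay inside 1.5-fold, and for 23 it reached past it. Among drug-metabolism and lipid genes, the fold of 0.641 over 0.06 mg/kg was 1.01 for Cyp3a23-3a1 (0.914 to 1.12), 1.06 for the Cyp2b1 and Cyp2b2 probe set (0.769 to 1.45), 1.10 for Ces2c (0.911 to 1.33), 1.03 for Hsd17b2 (0.887 to 1.20) and 1.01 for Fads1 (0.926 to 1.10). For Hykk it was 0.867 (0.499 to 1.51) and for Bcl6 1.04 (0.289 to 3.73), which bounds agreement within 1.5-fold for neither. Wide intervals were also those of Gsta3 (1.31-fold, 0.975 to 1.75), Abcc3 (0.883, 0.657 to 1.19), Nqo1 (0.800, 0.498 to 1.28), Resp18 (1.35-fold, 0.839 to 2.19), Abhd3 (1.58-fold, 0.431 to 5.77) and Ubd (0.641, 0.229 to 1.80). Jchain (0.772, 0.617 to 0.965), Orc1 (0.914), Mgat4a (0.896) and Slc13a5 (1.18-fold, 1.01 to 1.39) passed the unadjusted threshold. Of the CAR and PXR targets, Abcc2, an exporter (1.22-fold), Abcb1a, the drug pump P-glycoprotein (1.21-fold), and Cyp3a18 (1.16-fold, 1.02 to 1.32) were higher at 0.641 mg/kg at the unadjusted threshold, and 0 were called.

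Fgf21, a hormone that liver secretes in fasting, had the largest estimated difference. Its levels were 5.57, 5.90 and 6.84 at 0.641 mg/kg and 6.69, 7.29 and 7.99 at 0.06 mg/kg, with 5.46, 7.38 and 8.30 in vehicle. All but 1 array at 0.641 mg/kg lay below the lowest array at 0.06 mg/kg, while the vehicle arrays spanned both ranges. The level at 0.641 mg/kg was 0.399 of that at 0.06 mg/kg (0.212 to 0.754; unadjusted p = 0.00586, adjusted p = 1). Psat1, an enzyme of serine synthesis, was at 0.565 (0.337 to 0.946).

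The other large estimates were those of Cdh17, a cadherin (2.22-fold, 0.755 to 6.53), Ly6al (1.82-fold, 0.864 to 3.83) and Rec114, a meiotic recombination factor (0.564, 0.277 to 1.15), and their intervals held no difference. The smallest p belonged to Msmb, a secreted protein best known from prostate, with levels of 2.49, 2.59 and 2.83 at 0.641 mg/kg and 2.24, 2.28 and 2.44 at 0.06 mg/kg. The groups did not overlap. The fold was 1.248 (1.14 to 1.36; unadjusted p = 1.06e-05, adjusted p = 0.328), at levels near the bottom of the array's scale. Snrpn (0.830, 0.750 to 0.918), Zfp618 (0.850, 0.776 to 0.931), Adrb3, the beta 3 adrenergic receptor (1.18-fold, 1.08 to 1.29), and Trim63, a muscle ubiquitin ligase (1.19-fold, 1.08 to 1.31), followed, each with an adjusted p of 1.

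**Figure D5:**
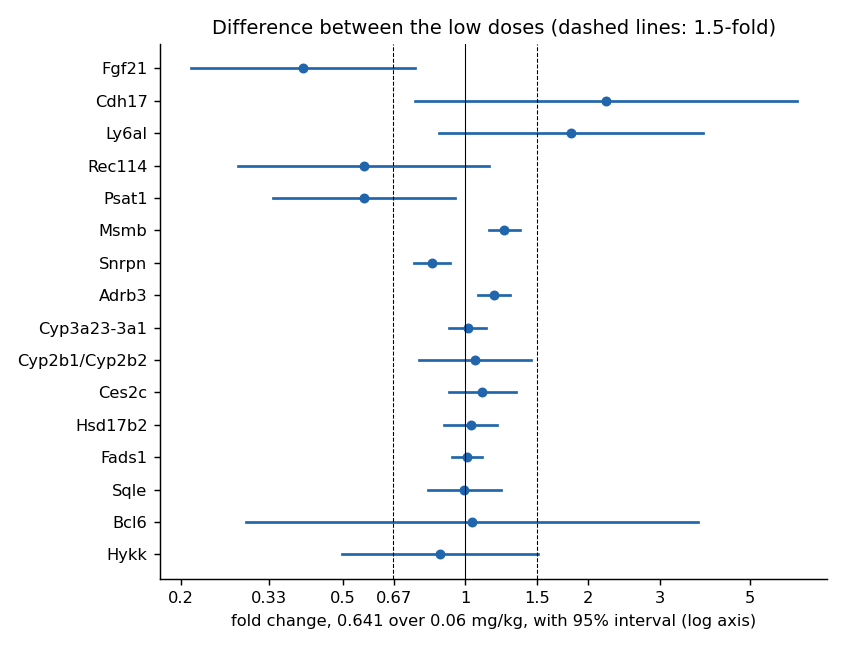
Fold of 0.641 over 0.06 mg/kg (log axis) with 95% interval for 16 genes; the dashed lines mark 1.5-fold up and down. Fgf21 lies at 0.399 with an interval from 0.212 to 0.754, and Cyp3a23-3a1, Cyp2b1/Cyp2b2, Ces2c, Hsd17b2 and Fads1 lie within 1.5-fold at both ends of their intervals.

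Over the 31 lists, the median direct difference ran from -0.148 to 0.0924 on the log2 scale. The medians against vehicle had the same sign at both doses for 19 lists and opposite signs for 12. The median log2 change against vehicle of the CAR and PXR list was 0.04 at 0.06 mg/kg and 0.13 at 0.641 mg/kg, and the median direct difference was 0.045. For cholesterol synthesis these were 0.098 at 0.06 mg/kg, 0.19 at 0.641 mg/kg and 0.092 for the direct difference, with Acat2 (1.30-fold), Tm7sf2 (1.22-fold) and Dhcr7 (1.22-fold) higher at 0.641 mg/kg at the unadjusted threshold. For fatty acid synthesis they were 0.077, 0.13 and 0.050. The lists farthest apart were stellate cells, at 0.077 at 0.06 mg/kg, -0.064 at 0.641 mg/kg and -0.148 for the direct difference, and immediate early genes, at 0.055, -0.039 and -0.105. Each dose's values share the 6 vehicle arrays, so the agreement of their signs is not independent evidence, and 0 list members were called in the direct contrast.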

How the data were processed

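Liver RNA was hybridised to Affymetrix rat arrays after biotin labelling with a 3′ IVT kit, per the labels' protocols. The deposited values are log2 levels per probe set. Per the submitters' processing notes they come from RMA, which corrects background, normalizes between arrays and summarises probes, and from affy; versions and settings are not given in the sources used here. They ran from 1.526 to 14.588, the range of a log2 scale, and were used as they stood. Their number limits the precision. Of 31099 probe sets, 57 controls were left out. Of the 31042 tested, 20826 had 1 gene symbol, 436 several and 9780 none. Symbols were updated through RefSeq GRCr8 (20758 by gene ID, 2 by accession, 66 as listed). Where a symbol, of 14217 in all, had several probe sets, the one highest on average was taken.

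In place of the R/maanova that the series design text names, limma 3.58.1 in R 4.3.3 fitted all 36 arrays with group as the factor. The pooled contrast was the mean of 0.06 and 0.641 mg/kg minus vehicle. Two-sided p-values were adjusted by Benjamini-Hochberg over all probe sets and called under 0.05. The step was also run on simulated data with planted changes, and no result given here rests on that run. The comparison, the 31 gene lists and the genes named were chosen with earlier results of these data known. Named were the 10 genes with the smallest pooled p in each direction, the 10 largest pooled changes, 5 dose differences by size and 5 by p, the 5 widest intervals at a mean of at least 6, the smallest p of each list, and fixed genes, of which 1 is not analysed here. No pair of arrays held identical values. The replicate numbers were not used as pairs in the main fit. Deviations of same-numbered arrays correlated at -0.149 to 0.321 (median -0.00254, 3 of 18 over 0.1). Those of differently numbered arrays correlated at -0.27 to 0.235 (median -0.00121, 15 of 90 over 0.1). The medians show no general pairing by number, but such values cannot show that no single arrays were paired.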

Additional observations from a re-analysis of the deposited data

Results flagged for a closer look

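Single arrays that lay far from the other 5 of their group, by Dixon's test at its critical value of 0.625, were looked for among the named genes. Of 264 groups tested, 26 (9.85%) had such an array, 20 of the 26 in low-dose groups, which were 176 of the 264 (66.7%). Chance gives about 1 in 20 groups where genes are not chosen by their values; many of these genes were chosen for large changes or wide intervals in the same arrays, so the share is not read against it.

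At 0.06 mg/kg, replicate 2 was high for Nqo1 (9.36, others 6.92 to 7.24) and low for Fcgr2b (8.99) and Resp18 (4.52). Replicate 3 was high for H4f3 (4.09) and low for Csf1r (7.19) and Zfp618 (3.11). Replicate 4 was high for Ly6al (6.37, others 3.61 to 4.18) and low for Ugt2b (6.77, others 12.6 to 12.91). Replicate 5 was low for Cd3e (4.01) and Hykk (6.14, others 7.97 to 8.37). Replicate 6 was high for Abhd3 (7.22, others 2.91 to 3.32) and low for Ubd (4.52, others 7.43 to 9.17).

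At 0.641 mg/kg, replicate 1 was low for Alb (14.26, others 14.49 to 14.53) and replicate 2 for Scd (9.55). Replicate 4 was low for Cyp7a1 (9.70, others 10.91 to 11.63), Dnajb9 (8.85) and Psat1 (6.16, others 7.12 to 7.28). Replicate 5 was high for Il1rn (5.44). Replicate 6 was low for Resp18 (5.62) and Ugt2b (5.23, others 12.7 to 12.92).

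In vehicle, replicate 2 was high for Nqo1 (9.37, others 6.86 to 7.61). Replicate 3 was low for Ugt2b (5.02, others 12.5 to 13.0). Replicate 4 was high for Csf1r (7.83) and Herc6 (5.10), and replicate 6 was low for Alb (14.50) and Ckmt2 (2.33).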

How the results depend on the processing

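The count of calls was 0 under all 31 settings for the pooled contrast and under all 28 for each dose, for 0.641 against 0.06 mg/kg and for the joint test. The smallest adjusted p over settings was 0.322 for the pooled contrast, 0.55 at 0.06 mg/kg, 0.305 at 0.641 mg/kg, 0.099 for the dose difference and 0.336 for the joint test, and the pooled count at an unadjusted p under 0.05 ran from 533 to 1728. With the replicate number as a block the pooled count of calls was 0 and 30804 probe sets were placed inside 1.5-fold; the block changed no other call. Testing fewer features lowered the counts inside 1.5-fold, which are therefore not comparable with those over 31042 probe sets. With only probe sets of a group mean of at least 6 they were 11079 (pooled test), 11020 (dose difference) and 11027 (pooled interval). With 1 mean per gene they were 14088, 14025 and 14041 of 14217 genes. Leaving out 1 array gave 30695 to 30803, 30554 to 30688 and 30571 to 30694. Of 2672 recomputed values of named genes, 44 changed sign, 41 of these within 1 standard error, and 3 reversed: Nqo1 (0.1129) and Scd (-0.0892) without vehicle replicate 2, and Ugt2b (-1.129) without vehicle replicate 3. The log2 change also moved widely for Nqo1 without replicate 2 of each low dose (-0.4607), for Scd without vehicle replicate 5 (0.4967) and for Ugt2b without replicate 6 at 0.641 mg/kg (0.8023). The vehicle group of 6 arrays enters every contrast of a dose with vehicle, but not the means compared in contrasts between dose groups. No detection calls were given, so signal over background was not separated.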
